A study of Mus musculus with 9 samples.

Results

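The miR-15 family of microRNAs (miRNAs) was followed here through left ventricles of mice with and without an Nrf2 transgene. Its members were taken by name from a table of 621 mature miRNAs, as every entry of miR-15a, miR-15b, miR-16, miR-195a, miR-195b, miR-497a or miR-497b. This gave 12 entries of the 621, namely both arms of miR-15a, miR-15b, miR-195a and miR-497a, the shared miR-16-5p, miR-16-1-3p (mmu-miR-16-1-3p in the table), miR-16-2-3p and miR-497b. No entry of miR-195b was in the table. The entries were taken by name and not by a threshold on their values, although the family was picked with earlier results of these data known.

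Libraries were made from total RNA of flash-frozen left ventricle of male mice aged 6 months on the C57BL/6J background. There were 3 groups of 3 libraries: non-transgenic mice (NTG), mice of the CaNrf2-Low line (TG-Low) and mice of the CaNrf2-High line (TG-High). Nrf2 is a regulator of transcription whose targets defend cells against oxidants, and the series concerns cardiac miRNAs that depend on it. The promoter of the transgene, and whether each library came from a separate animal, are not stated in the sources used here, so p-values measure the spread between these libraries, which may be technical.

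A miRNA guides silencing complexes to messenger RNAs that pair with its seed, the bases from 2 to 8 at its 5′ end. Each hairpin precursor gives a 5p and a 3p arm, and the arm that is usually retained is called the guide. In the miR-15 family the 5p arms are the guides. They are known for repressing cyclins, the checkpoint kinase Chek1 and the survival factor Bcl2, and thereby for slowing cell division and favouring cell death. In the mouse heart miR-195 is known to increase after birth and to hold heart muscle cells out of the cell cycle.

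The 5p arms are shown because they carry the shared seed, in capitals, with miR-322-5p and miR-503-5p, which have the same bases 2 to 7 and are the only others among the 544 table entries (of 621) that matched a mature sequence in RefSeq. All 12 family names matched a mature sequence in RefSeq (GRCm38.p6).
miR-15a-5p: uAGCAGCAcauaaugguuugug
miR-15b-5p: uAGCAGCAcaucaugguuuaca
miR-16-5p: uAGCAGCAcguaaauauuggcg
miR-195a-5p: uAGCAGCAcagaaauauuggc
miR-497a-5p: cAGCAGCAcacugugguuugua
miR-322-5p: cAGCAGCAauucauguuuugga
miR-503-5p: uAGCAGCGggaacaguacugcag
All 5 family guides and miR-322-5p had the same bases 2 to 8, and miR-503-5p differed in the last of them. Aligned from base 1, miR-16-5p and miR-195a-5p were identical at 19 of 21 bases, and miR-15a-5p and miR-15b-5p at 18 of 22. miR-16-5p and miR-497a-5p were identical at 11 of 22.

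The genes lie in 3 pairs of hairpins. In GRCm38, Mir16-1 (chr14:61631880-61631972, minus strand) and Mir15a (chr14:61632027-61632110, minus strand) lie 54 bases apart within the long noncoding transcript Dleu2, where GENCODE M21 puts Mir15a in an intron and Mir16-1 over an annotated exon. Mir15b (chr3:69009772-69009835, plus strand) and Mir16-2 (chr3:69009902-69009996, plus strand) lie 66 bases apart in an intron of Smc4, which encodes a subunit of condensin. Mir497 (chr11:70234717-70234800, plus strand) and Mir195a (chr11:70235042-70235135, plus strand) lie 241 bases apart and overlap no other annotated gene on their strand.

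Both miR-16 hairpins give the same miR-16-5p, and their 3p arms differ, so the 3p arms tell the copies apart. The hairpins are shown for this, with the 5p arm and then the 3p arm in capitals (RefSeq, GRCm38.p6).
Mir16-1: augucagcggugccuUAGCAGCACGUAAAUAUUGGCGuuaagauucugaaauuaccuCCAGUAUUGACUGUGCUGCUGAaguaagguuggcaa
Mir16-2: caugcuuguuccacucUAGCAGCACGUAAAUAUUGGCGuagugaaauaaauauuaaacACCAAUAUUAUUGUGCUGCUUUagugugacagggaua
The 3p arms of the other copies on chromosomes 14 and 3, with bases 2 to 8 in capitals, are also distinct.
miR-15a-3p: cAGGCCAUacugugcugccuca
miR-15b-3p: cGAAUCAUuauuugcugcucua

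Total counts ranged from 3.62e6 (TG-High replicate 2) to 1.17e7 (TG-High replicate 1). Abundances are CPM, counts per 1000000, after scaling by the trimmed mean of M values (TMM), and 509 of the 621 entries passed a filter on low counts, with all 12 family entries among them. The heart muscle miRNAs miR-499-5p (17002 CPM on average) and miR-208a-3p (2629 CPM) were abundant, while miR-1a-3p (111 CPM) and miR-133a-3p (1.52 CPM), which define striated muscle, were low for this tissue. How reads were counted is not stated in the sources used here, so these low values may not be the levels in the tissue. The endothelial miR-126a-3p averaged 156533 CPM and the smooth muscle miR-143-3p 93308 CPM.

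miR-195a-5p was the leading member. In NTG it was at 953, 1042 and 1031 CPM, in TG-Low at 857, 929 and 1116 CPM, and in TG-High at 909, 981 and 767 CPM. It lay above every other member in all 9 libraries, and the 3 groups overlapped. It held 59.7% to 67.2% of the family's CPM in a library, and stood at position 54 of 621 by mean abundance. Both the lead and this share depend on miR-16-5p as counted, at 1.85% to 2.77% of the family's CPM. That entry may not measure the whole of miR-16-5p, as described below. Counts of different miRNAs also carry the bias of library preparation, so the order of levels describes these libraries.

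Behind it in NTG came miR-497a-5p (135 ± 25.8 CPM, mean ± SD, n = 3, as for the values that follow), miR-15a-5p (99.1 ± 19.0 CPM), miR-195a-3p (88.7 ± 3.12 CPM) and miR-15b-5p (86.2 ± 16.8 CPM). The NTG ranges of neighbours among these 4 overlapped, so their order was not larger than the spread. miR-16-1-3p (55.3 ± 5.54 CPM), miR-16-5p (30.3 ± 3.31 CPM) and miR-15b-3p (19.0 ± 0.663 CPM) followed without overlap between neighbours. The least abundant were miR-16-2-3p (5.17 ± 0.545 CPM), miR-15a-3p (3.72 ± 0.790 CPM), miR-497b (2.87 ± 0.496 CPM) and miR-497a-3p (2.56 ± 0.161 CPM). These last 4 rested on few reads, from 9 counts (miR-16-2-3p in TG-High replicate 2) to 85 counts. The chromosome 11 pair, with miR-497b, supplied 75.2% to 81.5% of the family's CPM, miR-15a and miR-16-1-3p 9.34% to 15.3%, and miR-15b and miR-16-2-3p 5.74% to 7.88%. These shares carry the same limit from miR-16-5p, which is counted in none of the pairs.

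**Figure D1:**
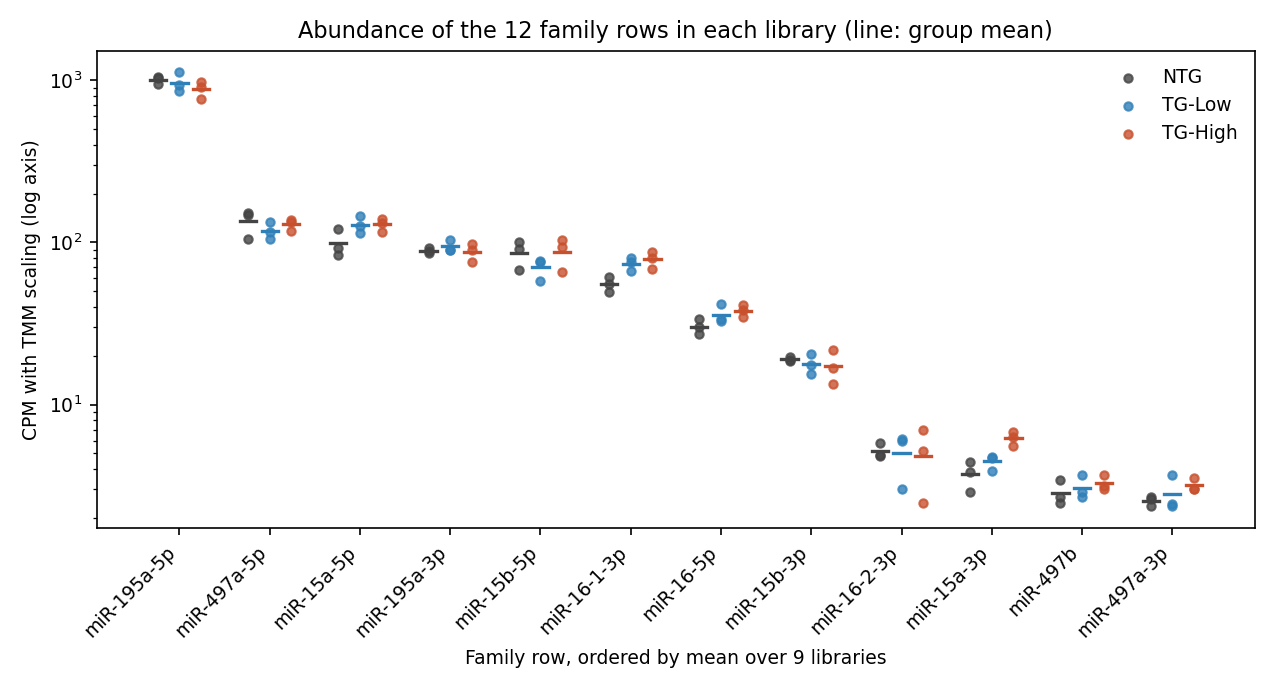
CPM with TMM scaling on a log axis for the 12 family entries, with 1 point per library and a line at each group mean (NTG, TG-Low and TG-High, n = 3 each). miR-195a-5p stands alone at the top, and the NTG points of miR-16-1-3p lie below all transgenic points of that entry.

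The level of miR-16-5p was unlike that of the other guides. It was below its own 3p arm, miR-16-1-3p, in every library, with a ratio of 0.405 to 0.679, while the other guides exceeded their 3p arms in every library. In NTG the mean 5p to 3p ratio (geometric mean, n = 3) was 4.47 for miR-15b, 11.4 for miR-195a, 26.3 for miR-15a and 50.8 for miR-497a. miR-16-5p is the only family arm here that comes from more than 1 hairpin gene. The sources used here do not state how reads that match several places were counted, so this entry may not measure the whole of miR-16-5p.

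The entries of miR-497a-3p and miR-497b held nearly the same counts. Their largest difference in any of the 9 libraries was 6 counts, for example 19 and 25 in NTG replicate 0, and both had 11 in TG-High replicate 2. The hairpins overlap on opposite strands, and the mature sequences share 17 base pairs of the genome (chr11:70234770-70234790, plus strand, and chr11:70234763-70234786, minus strand). Bases 2 to 8 are in capitals.
miR-497a-3p: cAAACCACacugugguguuag
miR-497b: cACCACAGugugguuuggacgugg
The sources used here do not state whether counting used strand, so these 2 entries cannot be told apart and are not separate evidence.

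The comparison of each line with NTG asks which members differ in hearts that carry the transgene. In TG-High, miR-16-1-3p, the passenger arm of the chromosome 14 copy of miR-16, rose, from 55.6, 60.7 and 49.7 CPM in NTG to 80.6, 86.7 and 68.1 CPM. TG-Low lay between 66.3 and 80.4 CPM, with values of 80.4, 66.3 and 75.3 CPM. All 6 transgenic libraries were above all 3 NTG libraries. The log2 fold change in TG-High was 0.51 ± 0.15 (SE), a 1.42-fold increase, with a 95% interval of 0.17 to 0.84 on the log2 scale (edgeR quasi-likelihood test, Benjamini-Hochberg adjusted p = 0.0409 over 509 entries).

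This was the single family call in TG-High, 1 higher of 12, where 18.3% of all 509 entries were called, 8.84% higher and 9.43% lower. For higher calls, the family share was thus near that of all entries. The call was lost in 7 of 9 refits that left out a library, namely any NTG library, TG-Low replicate 0 or 1, or TG-High replicate 0 or 1 (edgeR adjusted p from 0.0595 to 0.229). The log2 fold change stayed positive throughout, from 0.38 to 0.64, in all 15 alternatives tried. The call was also lost when low counts were not filtered (adjusted p of edgeR 0.0579) and without the 5 most abundant entries (0.0634). It was lost as well when the replicate number was added to the model. Without TG-High replicate 2, the least deep library, the adjusted p of edgeR was 0.0402.

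With both lines together against NTG, miR-16-1-3p had a log2 fold change of 0.46 ± 0.13 (SE) and missed the threshold (edgeR adjusted p = 0.0510). The authors' deposited table of that comparison gives it a log2 fold change of 0.45 with an adjusted p of 0.0124, the only one of the 12 below 0.05. Of all 621 entries, 83 (13.4%) were below 0.05 there. DESeq2's Wald test, run here, gave an adjusted p of 0.0120. In TG-Low alone its log2 fold change was 0.42 ± 0.15 (edgeR adjusted p = 0.176).

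For its neighbour miR-15a, cut from the same region of Dleu2, values were also higher in transgenic hearts but did not pass. miR-15a-5p was at 83.9, 120.4 and 92.9 CPM in NTG, at 127, 145 and 114 CPM in TG-Low, and at 131, 139 and 117 CPM in TG-High. NTG replicate 1 overlapped with TG-Low replicate 2 and TG-High replicate 2, and the other 4 transgenic libraries were above every NTG library. The log2 fold change was 0.37 ± 0.17 in TG-Low (edgeR adjusted p = 0.275) and 0.38 ± 0.17 in TG-High (edgeR adjusted p = 0.143). With both lines together it was 0.38 ± 0.14 (edgeR adjusted p = 0.110).

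The passenger arm miR-15a-3p was at 2.88, 4.45 and 3.83 CPM in NTG, at 3.91, 4.75 and 4.70 CPM in TG-Low, and at 6.73, 5.54 and 6.29 CPM in TG-High. The TG-High libraries were above all others, and TG-Low overlapped with NTG. Its log2 fold change in TG-High was 0.72 ± 0.24 (edgeR adjusted p = 0.0572), on 21 to 68 counts per library. Without TG-Low replicate 2 this became a call (edgeR adjusted p = 0.0443).

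miR-16-5p was at 27.1, 30.0 and 33.7 CPM in NTG, at 32.5, 41.6 and 33.6 CPM in TG-Low, and at 38.5, 40.8 and 34.5 CPM in TG-High. All TG-High libraries were above NTG, though TG-High replicate 2 only by a small margin. The log2 fold change in TG-High was 0.33 ± 0.16 (edgeR adjusted p = 0.190).

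None of the copies on chromosome 3 passed in either line. miR-15b-5p was at 67.6, 100.3 and 90.6 CPM in NTG, at 58.0, 76.4 and 76.0 CPM in TG-Low, and at 93.2, 103 and 65.4 CPM in TG-High. The groups overlapped. Its log2 fold change was -0.30 in TG-Low (95% interval -0.76 to 0.16, edgeR adjusted p = 0.465) and 0.02 in TG-High (-0.44 to 0.48, edgeR adjusted p = 0.961). miR-15b-3p had -0.09 in TG-Low and -0.13 in TG-High, and miR-16-2-3p had -0.04 and -0.01. The interval of miR-16-2-3p in TG-High ran from -0.80 to 0.77, which includes the value of miR-16-1-3p.

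None of the chromosome 11 arms passed in either line. miR-195a-5p had a log2 fold change of -0.06 in TG-Low (95% interval -0.36 to 0.25, edgeR adjusted p = 0.836) and -0.19 in TG-High (-0.49 to 0.12, edgeR adjusted p = 0.378). The interval of miR-16-1-3p in TG-Low, 0.08 to 0.76, overlapped that of miR-195a-5p. In TG-High, where it was 0.17 to 0.84, the 2 intervals did not overlap. The difference between these 2 arms was not tested. miR-195a-3p had 0.09 and -0.02 and miR-497a-5p -0.19 and -0.05. The nearly identical entries miR-497a-3p and miR-497b had 0.33 and 0.22 in TG-High, with edgeR adjusted p of 0.432 and 0.602.

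The 2 lines were also compared with each other, which asks whether members differ with the line. miR-15a-3p had the highest value, a log2 fold change of 0.46 in TG-High over TG-Low (95% interval -0.05 to 0.98, edgeR adjusted p = 0.622). miR-16-1-3p had 0.09 (-0.25 to 0.42, edgeR adjusted p = 0.910) and miR-15a-5p 0.01 (-0.36 to 0.38, edgeR adjusted p = 0.992). A difference between the lines was thus not detected for these arms, and the intervals allow differences in either direction.

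**Figure D2:**
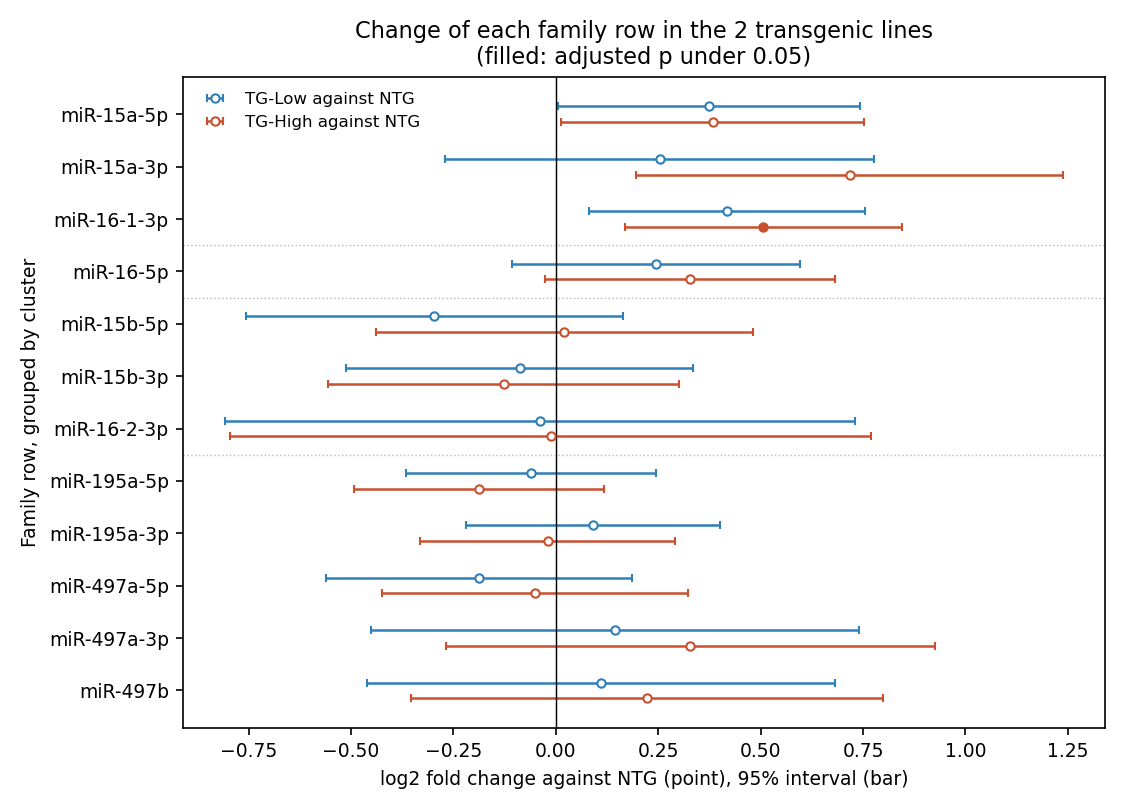
log2 fold change against NTG (points) with its 95% interval (bars) for the 12 family entries in TG-Low and TG-High, from edgeR. Dotted lines part the chromosome 14 arms, the shared miR-16-5p, the chromosome 3 arms and the chromosome 11 arms, and the filled point is miR-16-1-3p in TG-High at 0.51.

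Counted over the family, 0 of 12 members passed with both lines together, where 8.64% of all entries were called, 0 passed in TG-Low, where 1.57% were called, and 0 passed in TG-High against TG-Low, where 1.38% were called. At an unadjusted p under 0.05 edgeR had 2 members (miR-16-1-3p and miR-15a-5p) with both lines together and the same 2 in TG-Low, where 30.8% and 17.3% of all entries were under it. It had 3 in TG-High (those 2 and miR-15a-3p), against 30.8% of all entries, and 0 in TG-High against TG-Low, against 8.06%. DESeq2's Wald test called 1 member with both lines together, 1 in TG-High and 0 in the other comparisons. Over all entries the same test called 83 with both lines together and 101 in TG-High. It called 36 in TG-Low and 36 in TG-High against TG-Low. The median log2 fold change of the 12 was 0.12 in TG-High and 0.10 in TG-Low, where the median of all 509 was -0.01 and 0.02. The median size of change, whatever its sign, was 0.20 for the 12 and 0.36 for all 509 in TG-High. The 2 lines were compared with the same NTG libraries.

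Groups that did not overlap gave a similar picture. In TG-High, 4 of 12 members were above NTG in all libraries (miR-16-1-3p, miR-15a-3p, miR-16-5p and miR-497a-3p), where 20.0% of all entries were. miR-497b, which cannot be told apart from miR-497a-3p, overlapped. Its NTG replicate 0 (3.43 CPM) lay above TG-High replicates 0 and 2 (3.15 and 3.01 CPM). In TG-Low miR-16-1-3p was above NTG in all libraries, 1 of 12, against 11.4% of all entries. With both lines together miR-16-1-3p did so alone, 1 of 12, against 8.06% of all entries. In TG-High against TG-Low miR-15a-3p did so, 1 of 12, against 6.68%.

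**Figure D3:**
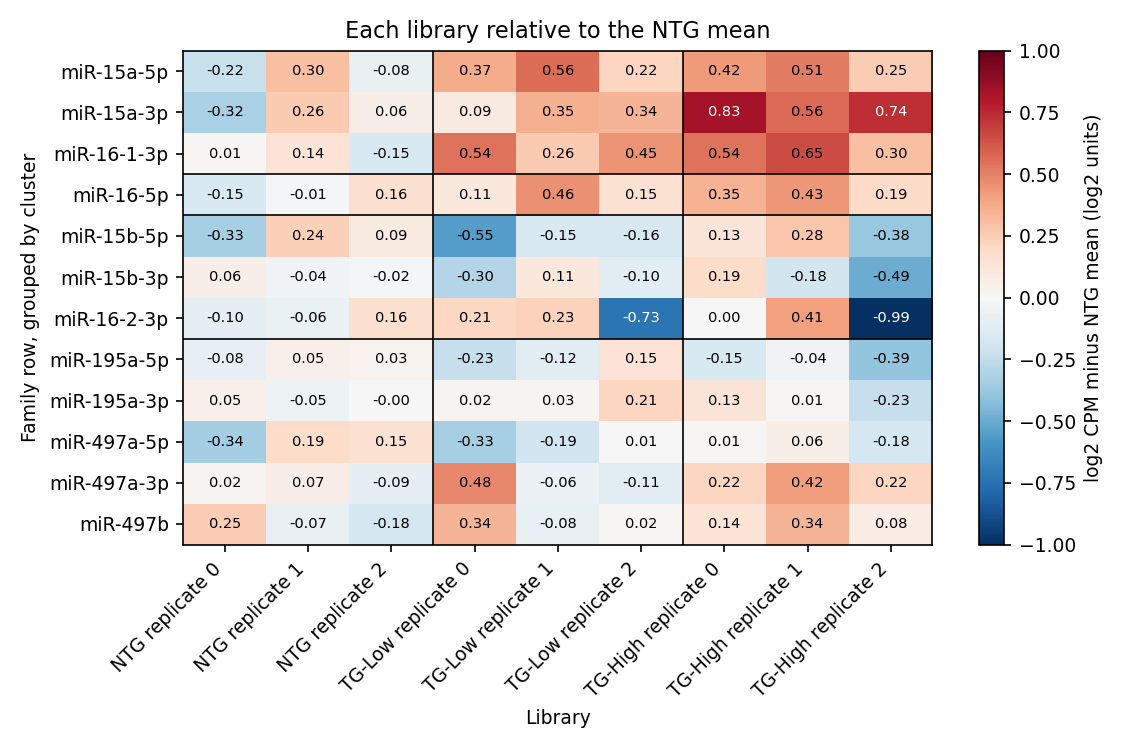
log2 CPM of each family entry in each of the 9 libraries minus the NTG mean of that entry, in log2 units, with red above and blue below. Solid lines part the clusters and the groups. miR-15a-5p, miR-15a-3p, miR-16-1-3p and miR-16-5p are above the NTG mean in all 6 transgenic libraries, while miR-195a-5p is above it in 1.

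Whether the chromosome 14 copies differed from their chromosome 3 counterparts was tested on the ratio of counts within each library, which does not depend on scaling. These ratios were chosen after the values had been seen, which favours a difference, so the exact p values only describe these libraries. The log2 ratio of miR-15a-5p to miR-15b-5p was 0.31, 0.26 and 0.04 in NTG, 1.13, 0.92 and 0.58 in TG-Low, and 0.49, 0.44 and 0.83 in TG-High. All 6 transgenic libraries were above NTG, and the mean difference was 0.53 (two-sided exact permutation test over the libraries, p = 0.0238, the smallest that 3 against 6 allows). The ratio of miR-15a-3p to miR-15b-3p differed by 0.64 (exact p = 0.0476), and that of miR-16-1-3p to miR-16-2-3p by 0.61 (exact p = 0.0952), each with 5 of 6 transgenic libraries above NTG. Adjusted over these 3 ratios the exact p values were 0.0714, 0.0714 and 0.0952, so the difference between the copies did not pass. TG-Low replicate 1 was the transgenic library within the NTG range for the last 2 ratios, and leaving it out parts the groups fully by construction (adjusted exact p = 0.0357 for all 3, the smallest that 3 against 5 allows). In the other 8 refits that left out a library the adjusted exact p was 0.107 to 0.286.

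The balance of the 2 arms of each hairpin was compared with the same test. With both lines together the log2 5p to 3p ratio differed from NTG by -0.16 for miR-195a (exact permutation p = 0.0714), by -0.32 for miR-497a (0.214) and by -0.12 for miR-15a (0.595). It differed by -0.01 for miR-15b (exact p = 0.976). For the shared miR-16-5p it differed by -0.18 against miR-16-1-3p (exact p = 0.262) and by 0.43 against miR-16-2-3p (exact p = 0.190). Adjusted over the 6 hairpins the smallest exact p was 0.393, so a change in arm balance was not detected in these 9 libraries.

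**Figure D4:**
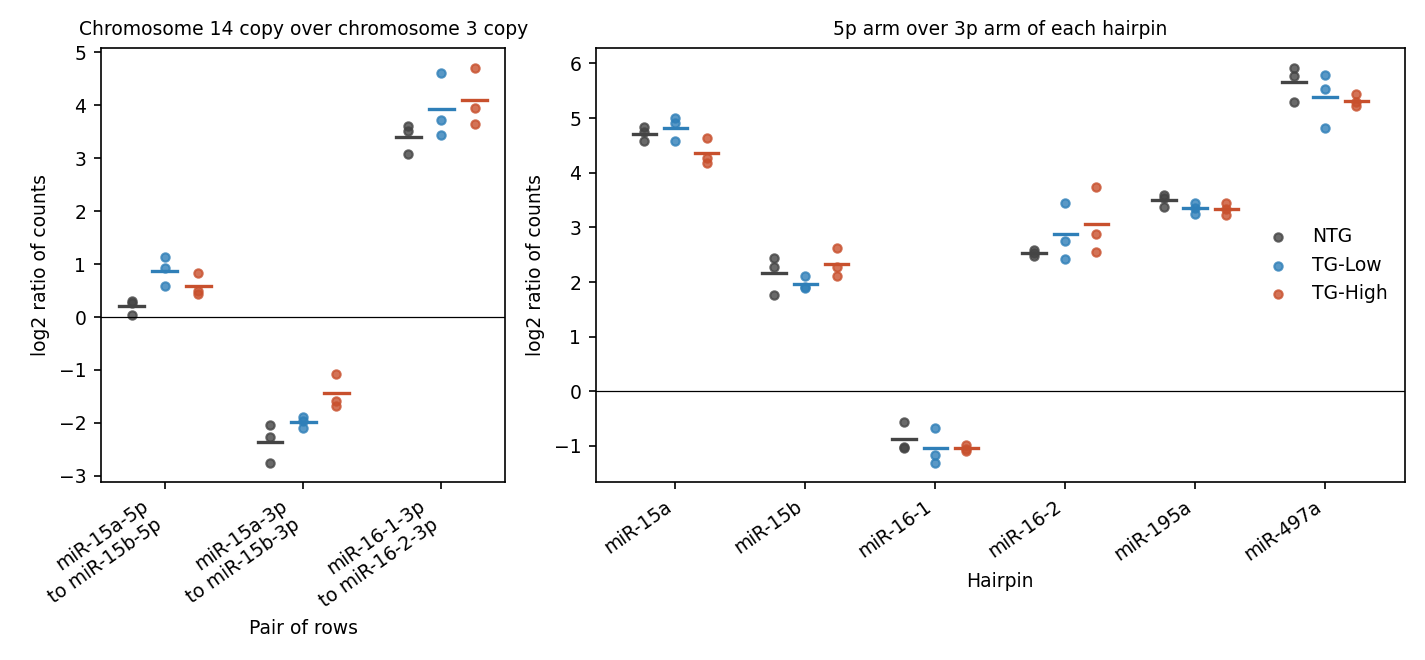
log2 ratios of counts per library, with a pseudocount of 0.5 counts, for the chromosome 14 copy over the chromosome 3 copy (left) and for the 5p over the 3p arm of each hairpin (right), with lines at group means (n = 3 each). On the left all transgenic points of miR-15a-5p to miR-15b-5p lie above NTG, and on the right miR-16-1 is the hairpin with ratios below 0.

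The seed relatives miR-322-5p and miR-503-5p, which share a hairpin cluster on the X chromosome, were not called higher. miR-322-5p, whose seed is identical, was at 320 ± 68.6 CPM in NTG, 302 ± 37.9 in TG-Low and 297 ± 42.8 in TG-High, with a log2 fold change of -0.11 in TG-High (edgeR adjusted p = 0.750). miR-503-5p was lower in TG-High, at 47.9 ± 7.19 CPM against 69.5 ± 4.70 in NTG (-0.53 ± 0.16, edgeR adjusted p = 0.0376). With both lines together miR-503-5p was also called lower (-0.48 ± 0.13, edgeR adjusted p = 0.0446), and miR-322-5p was not called (-0.09, edgeR adjusted p = 0.709). The 3p arms of these hairpins do not share the seed. Of them, miR-322-3p was called lower with both lines together (-0.49, edgeR adjusted p = 0.0374) but not in TG-High (-0.47, edgeR adjusted p = 0.0558). miR-503-3p was called in neither (-0.34 and -0.35, edgeR adjusted p = 0.182 and 0.264). The difference between these and the family members was not tested.

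Among 32 other miRNAs known for acting on cell division, 29 were measured. With both lines together 2 rose and 6 fell (median log2 fold change -0.25), in TG-High 3 rose and 9 fell (median -0.28), and in TG-Low 0 passed edgeR's test. Of all 509 entries, 8.64% were called with both lines together, and in TG-High 8.84% were called higher and 9.43% lower. Of the brakes on division, let-7d-5p (-0.49), let-7g-5p (-0.48), let-7c-5p (-0.43) and miR-29c-3p (-0.55) fell in TG-High, and the p53-responsive miR-34c-5p (1.22) and miR-34b-5p (1.23) rose. Of those that promote division, miR-221-3p (-1.08), miR-25-3p (-0.63), miR-222-3p (-0.61), miR-92a-3p (-0.72) and miR-20a-5p (-0.67) fell, and miR-21a-5p (0.99) rose. Both kinds thus moved in both directions.

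Over the 9 libraries, likeness was measured as the root mean square difference of log2 CPM centred on each miRNA's mean, among 280 miRNAs outside the family of at least 10 CPM. The nearest to miR-195a-5p were miR-27a-3p (0.0867), miR-425-3p (0.109) and miR-140-3p (0.111), against a median of 0.289. The nearest to miR-16-1-3p were let-7c-1-3p (0.150) and another let-7 passenger arm, let-7i-3p (0.159), followed by miR-744-5p (0.167), against a median of 0.360. Their log2 fold changes in TG-High were 0.77, 0.48 and 0.50, which the choice by likeness over the same libraries already favours, so no test is given.

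Some markers of blood cells fell in the High line. The 4 erythroid entries (miR-451a, both arms of miR-144 and miR-486a-5p) summed to 1633 to 2488 CPM in NTG, 1360.4 to 1851 CPM in TG-Low and 630.1 to 686 CPM in TG-High, and 3 of the 4 fell in TG-High. The 5 leukocyte entries summed to 1617 to 1703 CPM in NTG, 1298 to 1647 CPM in TG-Low and 1107 to 1158 CPM in TG-High, where miR-150-5p (-1.08) and miR-155-5p (-1.17) fell. The other 3 leukocyte entries did not pass, at 0.42 (miR-223-3p), 0.41 (miR-142a-3p) and -0.02 (miR-142a-5p), and the median of the list was -0.02. The 5 heart muscle entries summed to 22548 to 26532 CPM in NTG, 19526 to 23236 CPM in TG-Low and 13115 to 16749 CPM in TG-High, where miR-499-5p (-0.92, edgeR adjusted p = 0.00161) fell. The other 4 heart muscle entries did not pass, with positive values of 0.03 (miR-208a-3p), 0.17 (miR-133a-3p), 0.45 (miR-1a-3p) and 1.47 (miR-208b-3p), and the median of the list was 0.17. The value of miR-133a-3p rested on 5 to 15 counts per library, and both it and miR-1a-3p were low for this tissue as counted. Of the other lists, 1 of 2 endothelial entries fell (miR-126a-5p, -0.39), and 0 of 2 smooth muscle and 0 of 2 fibroblast entries (miR-199a-3p and miR-214-3p) passed. The fibroblast list also named miR-199a-5p, which had no entry. Of all 509 entries, 9.43% were called lower in TG-High. No marker in the table was at 0 in all libraries. These shifts run beside the higher values of miR-16-1-3p, and their part in them was not tested. In bulk tissue, fewer cells of a type and less RNA per cell cannot be told apart.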

How the data were processed

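DESeq2 1.18.1, Novoalign, SAMtools, Trim Galore 0.4.0, bcl2fastq 1.8.4 and the build GRCm38 (mm10) are listed, per the submitters' processing notes, with no role or order. The labels' protocols name an Illumina TruSeq RNA kit. The counting tool, its use of strand, the miRNA annotation and the treatment of reads that match several hairpins were not stated in the sources used here. Per the file headers, the deposited table holds raw read counts per miRNA and library, which were tested here. The authors also deposited a mean normalized signal, a log2 fold change of both lines against NTG, a Wald statistic as a score, and p-values with their adjustment. The log2 fold change and adjusted p of 1 miRNA are quoted.

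edgeR 4.0.16 (limma 3.58.1, R 4.3.3) was fitted to all 509 entries that filterByExpr kept (minimum count 10), with TMM scaling, and p-values were adjusted by Benjamini-Hochberg over these, with a threshold of 0.05. TG against NTG used 2 groups, and the other 3 contrasts a 3-group model over 9 libraries. Intervals are at 95%, from the quasi-likelihood F. Ratios of arms used a pseudocount of 0.5 counts and exact two-sided permutation tests (SciPy 1.17.1). The fits were tested on simulated data. The alternatives were DESeq2 1.42.0's Wald test and size factors, no filter, each library left out, a replicate block, no top 5 entries, no miR-497b (added later), an adjusted p of 0.10 and, for ratios, a pseudocount of 0.5 CPM. Named miRNAs were all members, seed relatives with their 3p arms, called members of the cell division list, markers and the nearest 3 patterns. Pairs with identical fits were named as examples. Members and lists were chosen with earlier results of these data known.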

Additional observations from a re-analysis of the deposited data

How the results depend on the processing

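With both lines together, the count of 0 members became 1 at an adjusted p of 0.10, 1 with DESeq2's Wald test, and 0 to 1 with each library left out. In TG-High the count of 1 became 2 at an adjusted p of 0.10, and 0 with no filter on low counts, with the replicate block, and without the 5 most abundant entries, and ran from 0 to 2 with each library left out. In TG-Low and in TG-High against TG-Low it was 0 in every alternative run. The log2 differences of the paralogue ratios, with each library left out, ran from 0.44 to 0.59 (miR-15a-5p to miR-15b-5p), 0.45 to 0.80 (miR-15a-3p to miR-15b-3p) and 0.45 to 0.72 (miR-16-1-3p to miR-16-2-3p). The log2 fold changes of miR-15a-5p, miR-15a-3p, miR-16-1-3p and miR-16-5p against NTG were positive in all 15 alternatives. The cause of these changes was not tested. Over all entries, the calls with both lines together were 44, against 83 with DESeq2, 66 with no filter, 95 at 0.10 and 14 to 108 with each library left out. In TG-High they were 93, against 101 with DESeq2, 110 with no filter, 121 at 0.10 and 37 to 114 with each library left out. Without the 5 most abundant entries they were 91 in TG-High. In TG-Low the calls were 8, against 36 (DESeq2), 21 (no filter), 12 (at 0.10) and 0 to 18 (each library left out). In TG-High against TG-Low they were 7, against 36, 25, 9 and 0 to 10 in the same order. No clear pairing by replicate number was seen, although the values that follow cannot exclude one. Same-numbered libraries correlated from -0.17 to 0.23 in their deviations from group means, and 4 of 9 libraries correlated best with their own number. With the replicate block the calls were 35, 75, 11 and 6 in the order above, and miR-16-1-3p in TG-High was at 0.50 on the log2 scale (adjusted p = 0.0573 by edgeR). The counts of miR-15a-3p, miR-16-2-3p, miR-497a-3p and miR-497b were at most 85 in a library, which limits their precision.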
